A study of Mus musculus with 18 samples.

Results

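Isl1, Ebf1, Zfp503, Zfhx3, Foxp1, Foxp2, Meis2, Rarb, Rxrg and Crabp1 are 10 genes with known roles in, or high levels in, the developing striatum. The rule that picks their probe sets uses gene names and no measured value: each array probe set annotated to a single gene was kept if its symbol was one of the 10, which gave 36 probe sets out of 34945 single-gene probe sets on the array. The probe set with the highest mean over all arrays stood for each gene. All 10 genes passed the filter on dim probe sets and were among the 14292 genes tested. The filter uses the mean over all arrays. Ebf1 and Crabp1 had means under the filter level in every E18.5 and P2 group. They passed only through their E14.5 arrays. Isl1 had means near or under that level in these groups, and it too passed only through its E14.5 arrays. The falls of Isl1, Ebf1 and Crabp1 with age below are thus not independent of the filter.

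The samples were interneurons of the mouse cortex, sorted by GFP and labelled as derived from the caudal ganglionic eminence (CGE). Both genotypes carried GAD65-GFP, a reporter named for the GABA-synthesizing enzyme encoded by Gad2, and one of them also carried Htr3a-KO, loss of the serotonin receptor subunit Htr3a. Cells were collected at the embryonic ages E14.5 and E18.5 and at P2, soon after birth, which the study describes as tangential migration, invasion of the cortical plate and settling in the cortex. The 6 groups of genotype and age, GAD65-GFP controls and Htr3a-KO;GAD65-GFP at E14.5, E18.5 and P2, had 3 arrays each, each from a pool of at least 4 brains and each from a different litter. A pool hides the spread between animals, so the errors below are between litters.

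The striatum forms from the lateral ganglionic eminence (LGE), next to the CGE, and its projection neurons are GABAergic, as cortical interneurons are. Isl1 is a LIM-homeodomain factor of striatonigral and cholinergic striatal neurons, and Ebf1 is a factor needed for the differentiation of striatonigral neurons. Retinoic acid signalling takes part in the same differentiation, through receptors that include Rarb and Rxrg. None of the 10 genes is restricted to the striatum: Meis2, Foxp1 and Foxp2 are also used by cortical and other forebrain neurons.

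RefSeq promoters (GRCm38.p6, 250 bases before to 50 bases after a start site) were found for 9 of the 10 genes, 13 promoters in all. Those of Isl1, Ebf1 and Zfp503 are shown because these 3 genes had the largest drops with age, and that of Rarb because it holds the retinoic acid response element, the site through which this receptor gene answers to its own ligand. Ebf1 has 2 promoters in the table, of which the upstream one is shown. Capitals mark the matched motifs, on the gene's strand from 5′ to 3′.

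Isl1, chr13:116309639-116309938, minus strand: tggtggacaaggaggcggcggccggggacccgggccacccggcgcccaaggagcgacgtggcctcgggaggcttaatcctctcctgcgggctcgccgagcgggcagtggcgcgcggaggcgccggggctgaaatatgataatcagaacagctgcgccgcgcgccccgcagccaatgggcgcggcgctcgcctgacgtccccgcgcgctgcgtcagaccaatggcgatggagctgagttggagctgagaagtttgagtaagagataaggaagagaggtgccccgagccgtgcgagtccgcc
Ebf1, chr11:44617850-44618149, plus strand: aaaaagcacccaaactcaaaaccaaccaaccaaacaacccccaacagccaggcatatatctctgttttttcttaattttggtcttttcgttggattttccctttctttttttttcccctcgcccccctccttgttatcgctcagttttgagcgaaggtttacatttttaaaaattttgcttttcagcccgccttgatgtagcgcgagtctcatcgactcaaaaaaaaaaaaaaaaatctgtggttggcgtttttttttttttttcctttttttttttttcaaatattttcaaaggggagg
Zfp503, chr14:21989552-21989851, minus strand: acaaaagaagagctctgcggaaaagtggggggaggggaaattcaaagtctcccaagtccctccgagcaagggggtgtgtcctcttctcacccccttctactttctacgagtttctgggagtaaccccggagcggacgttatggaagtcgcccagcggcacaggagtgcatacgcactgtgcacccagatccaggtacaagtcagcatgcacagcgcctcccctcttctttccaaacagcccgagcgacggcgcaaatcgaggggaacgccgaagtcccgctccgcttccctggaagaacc
Rarb, chr14:16575427-16575726, minus strand: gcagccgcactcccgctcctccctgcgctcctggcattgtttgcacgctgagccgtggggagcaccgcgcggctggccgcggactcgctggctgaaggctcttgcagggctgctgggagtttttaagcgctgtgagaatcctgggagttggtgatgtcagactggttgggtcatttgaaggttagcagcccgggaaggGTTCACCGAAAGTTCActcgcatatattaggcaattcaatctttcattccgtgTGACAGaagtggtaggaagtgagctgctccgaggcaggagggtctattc

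The first run of capitals in the Rarb promoter is a direct repeat of GTTCA with 6 bases between the copies, 52 bases before the start site. This repeat was in 0.0761% of the 32851 promoters searched on both strands and in 1 of the 13 promoters of the 10 genes. The second run is the Meis motif TGACAG, found in 19.2% of all promoters and in 2 of the 13, those of Rarb and Foxp1. The TATAAA box, in 13.6% of all promoters, was matched in 1 of the 13, that of Meis2. No match to the Ebf palindrome (0.904% of all promoters), the forkhead motif (3.65%) or the Isl1 homeodomain motif (7.36%) was found in these windows. The promoters differ in base composition: G and C make up 69.0% of the Isl1 window, and 36.7% and 53.0% of the 2 Ebf1 windows, against a median of 52.7% over all promoters.

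Signal levels and labels were checked first. The median log2 intensity of the 18 arrays lay between 6.35 and 6.46, and any 2 arrays of a group correlated at 0.984 or more across probe sets, which are not independent replicates. Htr3a, the targeted gene, read 8.49, 7.99 and 7.65 in the controls and 7.41, 7.29 and 7.19 in the Htr3a-KO at E14.5, with lower values in the Htr3a-KO and no overlap between the genotypes at either later age. Gad2 was read in all groups, from 8.44 to 11.57. Excitatory neuron markers were also bright in these sorted samples, with list means of 7.49 to 10.7 over the 18 arrays, and the source of that RNA was not tested.

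All values below are log2 intensities, normalized by the authors with robust multi-array average (RMA), and 5.26 is the level under which the dimmest 30% of probe sets lie. A log2 difference that ends near this level does not set the size of the change in RNA. Levels are compared between arrays for 1 gene at a time and not between genes. Tests are limma tests of differences across all genes with Benjamini-Hochberg adjustment, and called means an adjusted p under 0.05.

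In controls, 7 of the 10 genes fell between E14.5 and E18.5 and none rose: Isl1, Ebf1, Zfp503, Zfhx3, Crabp1, Rarb and Foxp2. Over all genes tested, 4.93% were called lower and 6.06% higher in this step. The arrays of the ages did not overlap for these 7 genes, which held in the same direction for 16.5% of all genes. The median difference of the 10 genes was -2.91, against -0.01 for all genes. In the Htr3a-KO, 4 of the 10 fell in the same step and none rose, against 8.88% lower and 6.26% higher over all genes, and the ages did not overlap for Ebf1, Zfhx3, Foxp2 and Crabp1 (24.5% of all genes in that direction). Since these are bulk RNA samples, fewer cells of a type and less RNA of that gene per cell cannot be told apart.

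**Figure D1:**
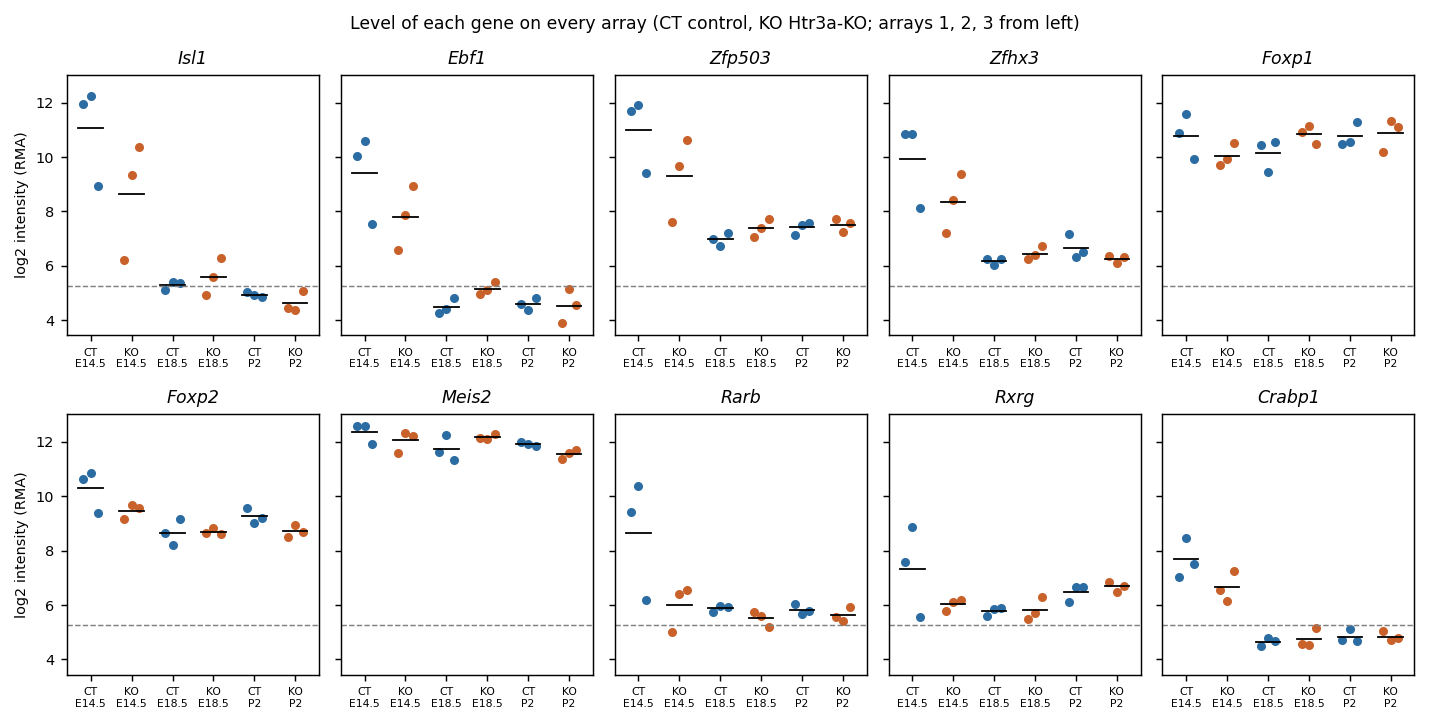
Log2 intensity (RMA) of each of the 10 genes on all 18 arrays, 1 panel per gene; points are arrays, black bars group means, blue control (CT), orange Htr3a-KO (KO), and the dashed line the filter level of 5.26. Isl1, Ebf1 and Crabp1 end near or below the dashed line at E18.5 and P2, while Foxp1 and Meis2 stay above 9 throughout.

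Isl1 read 11.97, 12.25 and 8.95 on the control E14.5 arrays and 5.1, 5.42 and 5.37 at E18.5, so the ages did not overlap, although the third E14.5 array was well below the other 2. Its log2 difference was -5.76 ± 0.87 (SE; adjusted p = 7.23e-04). In the Htr3a-KO it read 6.21, 9.34 and 10.38 at E14.5 and 4.93, 5.58 and 6.3 at E18.5, a difference of -3.04 ± 0.87 (adjusted p = 0.0293), and here the lowest E14.5 array lay below the highest E18.5 array. At P2 all 6 arrays read between 4.39 and 5.08, under the filter level. Isl1 passed the filter only through its E14.5 arrays, which favours a fall. Both Isl1 probe sets fell in controls, by 5.16 and 5.76, and 1 of the 2 passed in the Htr3a-KO.

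Ebf1, the factor of striatonigral differentiation, read 10.05, 10.59 and 7.55 on the control E14.5 arrays and 4.26, 4.42 and 4.81 at E18.5. The difference was -4.90 ± 0.63 (adjusted p = 2.07e-04), with no overlap between the ages. In the Htr3a-KO, values of 6.59, 7.86 and 8.94 were followed by 4.96, 5.12 and 5.4, a difference of -2.64 ± 0.63 (adjusted p = 0.0130), again without overlap. Of the 5 Ebf1 probe sets, 4 fell in controls, and the fifth, which lies under the filter, differed by -0.24. In the Htr3a-KO only 1 of the 5 passed when every probe set was tested on its own.

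Zfp503 (Nolz1), a zinc-finger repressor of the LGE, read 11.69, 11.9 and 9.43 on the control E14.5 arrays and 6.99, 6.72 and 7.21 at E18.5, a difference of -4.03 ± 0.63 (adjusted p = 9.35e-04). In the Htr3a-KO it read 7.61, 9.68 and 10.64 and then 7.07, 7.38 and 7.72, so that the ages overlapped, and the difference of -1.92 ± 0.63 missed the threshold (adjusted p = 0.0511). Zfhx3, a large zinc-finger and homeodomain factor, read 10.86, 10.84 and 8.12 on the control E14.5 arrays and 6.26, 6.03 and 6.24 at E18.5, a difference of -3.76 ± 0.59 (adjusted p = 9.26e-04). The Htr3a-KO values of 7.21, 8.43 and 9.36 and then 6.24, 6.4 and 6.71 did not overlap, with a difference of -1.88 ± 0.59 (adjusted p = 0.0420). This call was lost without Htr3a-KO array 2 or 3 of E14.5 and without Htr3a-KO array 1, 2 or 3 of E18.5. It was also lost without control array 1 or 3 of E18.5 or Htr3a-KO array 3 of P2. There the difference stayed at -1.88, with adjusted p-values of 0.0514 to 0.0537. All 6 Zfhx3 probe sets and both Zfp503 probe sets fell in controls, and none of these 8 passed in the Htr3a-KO when every probe set was tested on its own. Unlike Isl1 and Ebf1, both genes stayed above the filter level at E18.5 and P2.

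**Figure D2:**
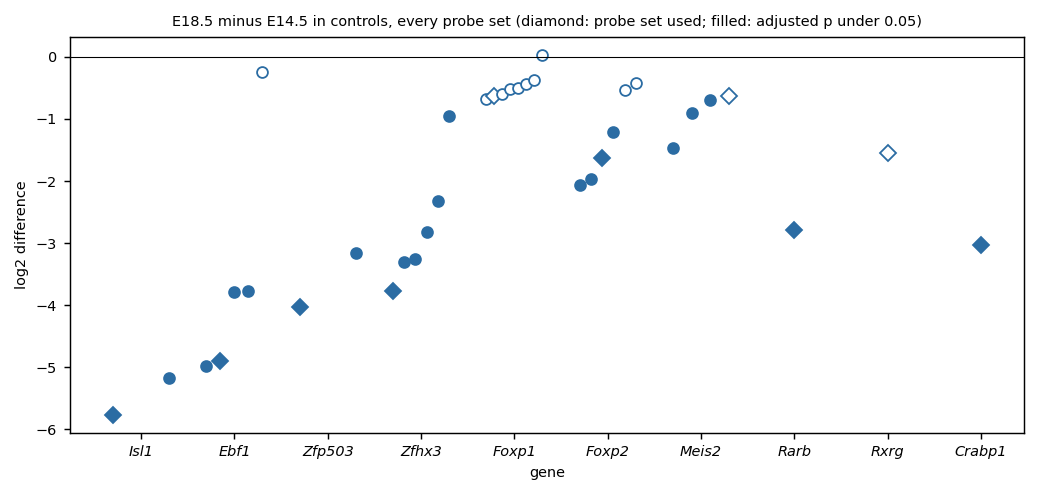
Log2 difference between E18.5 and E14.5 in controls for all 36 probe sets of the 10 genes; diamonds mark the probe set that stands for the gene and filled symbols an adjusted p under 0.05. All probe sets of Isl1, Zfp503 and Zfhx3 are filled, and none of the 8 of Foxp1 is.

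Foxp1 and Foxp2 are forkhead repressors of which Foxp1 is abundant in striatal projection neurons. Foxp2 read 10.64, 10.86 and 9.39 on the control E14.5 arrays and 8.64, 8.21 and 9.15 at E18.5. The difference was -1.63 ± 0.31 (adjusted p = 0.00352), and 4 of its 6 probe sets fell. With only the arrays of the groups compared, this difference missed the threshold (adjusted p = 0.0548). In the Htr3a-KO, Foxp2 read 9.17, 9.69 and 9.56 and then 8.65, 8.85 and 8.61, with no overlap but an adjusted p of 0.102 for the difference of -0.77. Foxp1 did not pass the test in either genotype: the control difference was -0.64 ± 0.41 (adjusted p = 0.367) and the Htr3a-KO difference 0.79 ± 0.41 (adjusted p = 0.202). With array weights, which count arrays that depart from their group for less, the Htr3a-KO difference was 1.10 and Foxp1 was called higher (adjusted p = 0.0138), where 33.6% of all genes were called. Its readings were 10.87, 11.57 and 9.91 and then 10.43, 9.44 and 10.57 in controls, and 9.72, 9.92 and 10.53 and then 10.91, 11.13 and 10.49 in the Htr3a-KO, so the ages overlapped in both. Of the 8 Foxp1 probe sets, 1 was called higher at E18.5 than E14.5 in the Htr3a-KO, by 2.53 (adjusted p = 0.0375), which the other 7 Foxp1 probe sets were not.

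Meis2, a TALE-homeodomain factor of the LGE and striatum and of many other neurons, was the least variable of the 10 at E14.5, with a range of 0.99 over the 6 arrays. Its main probe set read 12.59, 12.6 and 11.93 on the control E14.5 arrays and 11.65, 12.26 and 11.34 at E18.5, an overlap, with a difference of -0.62 ± 0.23 (adjusted p = 0.0959). The other 3 Meis2 probe sets were called lower in this step, by 0.69 to 1.47. The main probe set was called without control array 3 of E14.5 (-0.85, adjusted p = 0.0326). That array read lowest of the E14.5 controls, so leaving it out had to make the fall larger. The same holds for control array 2 of E18.5, the highest there, without which Meis2 was called too (-0.88, adjusted p = 0.0215). Meis2 was also called with array weights (-0.84, adjusted p = 0.00466) and with its probe sets averaged (-0.92, adjusted p = 0.0142). In the Htr3a-KO, none of the 4 passed, and the main probe set differed by 0.13 ± 0.23.

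Among the retinoid genes, Rarb read 9.42, 10.39 and 6.19 on the control E14.5 arrays and 5.76, 5.98 and 5.92 at E18.5. The difference was -2.78 ± 0.71 (adjusted p = 0.0195), although the third E14.5 array lay just above the highest at E18.5. This call was lost without control array 1 or 2 of E14.5 and without control array 1 or 3 of E18.5, with an adjusted p of up to 0.0889. It was also lost with only the arrays of the groups compared (adjusted p = 0.123). In the Htr3a-KO, Rarb read 5.01, 6.4 and 6.56 at E14.5 and 5.75, 5.58 and 5.21 at E18.5, a difference of -0.48 ± 0.71 (adjusted p = 0.671).

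Rxrg, the partner receptor, read 7.6, 8.86 and 5.56 in E14.5 controls and 5.61, 5.87 and 5.91 at E18.5, so that 2 of the 3 arrays lay above all E18.5 values and the third below them. Its difference of -1.54 ± 0.52 had an adjusted p of 0.0721. Without control array 3 of E14.5, the lowest there, the fall had to be larger. It was -2.43 ± 0.30, with a smaller SE as well, and Rxrg was called (adjusted p = 1.93e-04). Rxrg was also called with array weights (-2.19, adjusted p = 0.00295), and with control array 2 left out the difference was -0.78. Crabp1, the protein that binds retinoic acid in the cytosol, had the smallest adjusted p of the 10: it read 7.04, 8.48 and 7.52 in E14.5 controls and 4.5, 4.79 and 4.66 at E18.5, a difference of -3.03 ± 0.31 (adjusted p = 3.17e-05). Htr3a-KO values of 6.54, 6.16 and 7.24 were followed by 4.58, 4.53 and 5.15, a difference of -1.89 ± 0.31 (adjusted p = 0.00124). Crabp1 was called in both genotypes with any one array left out, with adjusted p-values of up to 0.00948. It passed the filter only through its E14.5 arrays, which favours a fall. Crabp1 and Htr3a lie on the same chromosome, 9.

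The spread of these genes between control litters at E14.5 was wide. The median SD of the 10 genes was 1.47 over the 3 control E14.5 arrays, against 0.13 for all genes, and 0.70 in the Htr3a-KO at E14.5, against 0.16. In the 4 later groups it was 0.21 to 0.30. For 9 of the 10 genes control arrays 1 and 2 both read above the other 4 E14.5 arrays, which held for 8.20% of all genes, and Crabp1 was the exception. Control array 2 was the highest of the 6 for 9 of 10 genes (16.1% of all genes), with Zfhx3 the exception, and Htr3a-KO array 1 the lowest for 8 of 10 (15.0%), the exceptions being Rxrg and Crabp1.

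**Figure D3:**
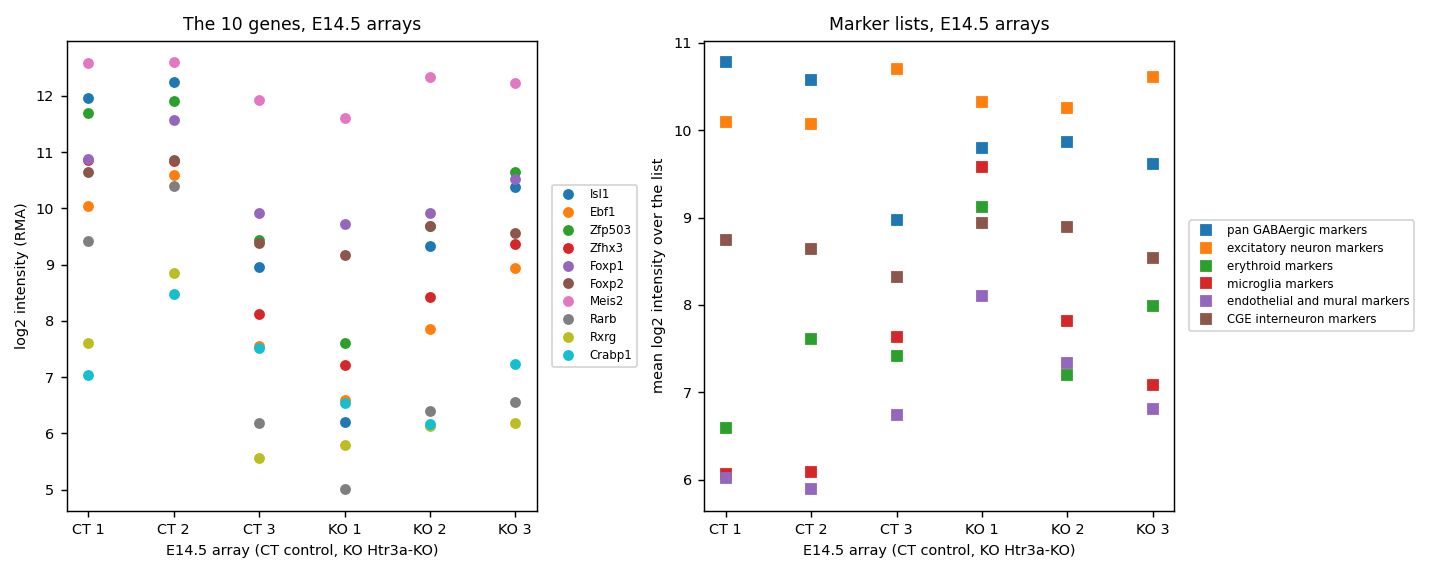
Left, log2 intensity (RMA) of the 10 genes on the 6 E14.5 arrays; right, mean log2 intensity of 6 marker lists on the same arrays (CT control, KO Htr3a-KO). Control arrays 1 and 2 are highest for 9 of the 10 genes and for the pan GABAergic list, and the microglia list is highest on Htr3a-KO array 1, at 9.58.

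Marker lists of other cells differed between the same arrays. In array order, controls 1 to 3 and then Htr3a-KO 1 to 3, the mean of the 10 genes was 10.27, 10.83, 8.46, 7.55, 8.59 and 9.16. The mean of 7 pan GABAergic markers was 10.78, 10.58, 8.97, 9.80, 9.86 and 9.61. That of 8 microglia markers was 6.06, 6.09, 7.63, 9.58, 7.81 and 7.08. Microglia markers were thus lowest on the 2 arrays where the 10 genes were highest, and highest on the array where they were lowest. The mean of 7 endothelial and mural markers ran from 5.89 on control array 2 to 8.10 on Htr3a-KO array 1, that of 4 erythroid markers from 6.59 on control array 1 to 9.12 on Htr3a-KO array 1, and that of 12 excitatory neuron markers from 10.08 to 10.70. Aif1, 1 of the 8 microglia markers, read 4.66, 4.92 and 5.65 in the controls and 7.31, 5.63 and 5.02 in the Htr3a-KO. The readings of 4.66, 4.92 and 5.02 lie under the filter level. The part of cell makeup in the E14.5 values of the 10 genes was not tested.

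Control arrays 1 and 2 of E14.5 were also left out together, an alternative added after the values were seen. They were picked because they read highest for most of the 10 genes, so their removal had to make most falls smaller. A single control E14.5 array remains, its spread is taken from the other groups, and the values are given as a description. Crabp1 differed by -2.87 and Ebf1 by -3.05, and these 2 genes still passed the threshold (3.33% of all genes did). Isl1 differed by -3.65, Zfp503 by -2.46, Zfhx3 by -1.94, Foxp2 by -0.72 and Rarb by -0.30. Htr3a-KO array 1, the lowest for 8 of the 10 genes, was then left out as well. The Htr3a-KO falls of most of the 10 had to be larger, with Isl1 at -4.26 and Rarb at -0.97. Leaving out single arrays gave 1 to 6 called genes in the Htr3a-KO step. The count was 1 without Htr3a-KO array 3 of E14.5 (10.7% of all genes called) and 2 without its array 2 (11.3%) or without Htr3a-KO array 1 (7.22%) or 2 (6.49%) of E18.5. The calls lost there were those of Isl1 and Zfhx3, with adjusted p-values of up to 0.118 and 0.156, and, without array 3, that of Ebf1 as well (adjusted p = 0.0547). It was 6 without control array 3 of E14.5 (15.5%).

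From E18.5 to P2 none of the 10 genes was called in either genotype by limma, against 9.75% lower and 9.96% higher over all genes in controls and 15.0% and 13.5% in the Htr3a-KO. At an unadjusted p under 0.05 the count was 0 in controls (33.0% of all genes) and 1 in the Htr3a-KO (40.9%). That gene was Meis2, which in the Htr3a-KO went from 12.14, 12.12 and 12.29 to 11.38, 11.61 and 11.72, without overlap, a difference of -0.61 ± 0.23 (adjusted p = 0.0567). It was called without array 3 of the E14.5 controls, where the adjusted p was 0.0381 and Rxrg was called too (adjusted p = 0.0300), and also without array 2 or 3 of the E18.5 controls or array 1 of the E14.5 Htr3a-KO. Rxrg was higher at P2 than at E18.5 on every array in both genotypes, with P2 readings of 6.13, 6.66 and 6.66 in controls and 6.85, 6.49 and 6.71 in the Htr3a-KO. Its differences of 0.69 ± 0.52 (adjusted p = 0.401) and 0.86 ± 0.52 (adjusted p = 0.230) did not pass the test. The spread behind these errors is shared with the E14.5 arrays. With only the arrays of the groups compared, the SEs were 0.18 and 0.21. Rxrg was then called in both genotypes (adjusted p = 0.0475 and 0.0223), and Meis2 in the Htr3a-KO (adjusted p = 0.0123). Counting genes with P2 arrays all above the E18.5 arrays, 2 of the 10 met this in controls (15.7% of all genes), Rxrg and Zfhx3, and 1 in the Htr3a-KO (22.8%). Zfp503 and Zfhx3 stayed at 7.15 to 7.73 and 6.1 to 7.18 on the P2 arrays.

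Between genotypes none of the 10 genes was called at any age by limma. At E14.5 the 10 differences of Htr3a-KO minus control were all below 0, with a median of -1.45 against 0.01 for all genes, and 0.0140% of all genes were called. At an unadjusted p under 0.05, 8 of the 10 genes passed, against 5.86% of all genes. The largest were Rarb, at -2.68 ± 0.71 (adjusted p = 0.659), and Isl1, at -2.41 ± 0.87 (adjusted p = 0.718). Zfp503, Zfhx3, Ebf1, Rxrg and Crabp1 lay between -1.70 and -1.03, and Foxp2, Foxp1 and Meis2 between -0.82 and -0.32. The genotypes overlapped for all 10 genes, while 4.03% of all genes lay lower and 4.98% higher in the Htr3a-KO without overlap.

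**Figure D4:**
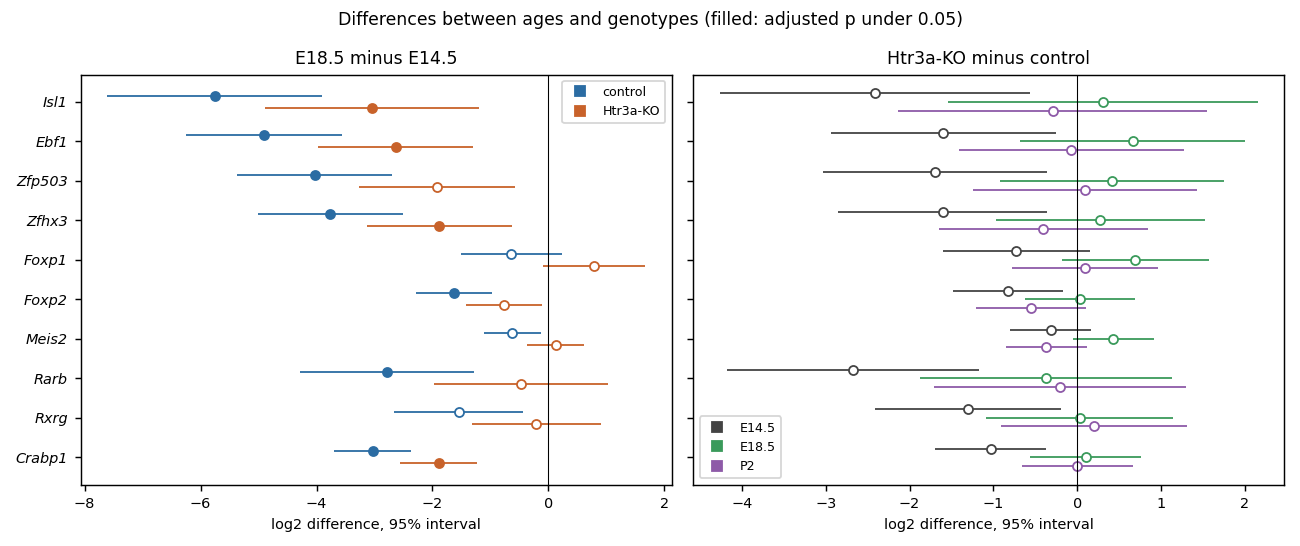
Log2 differences of the 10 genes with 95% intervals, between E18.5 and E14.5 in each genotype (left) and between Htr3a-KO and control at each age (right); filled symbols have an adjusted p under 0.05. In the left panel 7 control and 4 Htr3a-KO symbols are filled, and in the right panel none is.

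Control array 3 was the lowest of the 3 for 9 of the 10 genes, so its removal had to make most differences larger. Without it, 5 of the 10 genes were called lower in the Htr3a-KO at E14.5, against 0.945% of all genes called in either direction. These were Rarb, Rxrg, Zfhx3, Foxp2 and Ebf1, and the Rarb difference was -3.92 (adjusted p = 1.20e-04). The SEs of these genes were also lower than in the main fit, at 0.37 against 0.71 for Rarb and 0.49 against 0.63 for Ebf1. Without control arrays 1 and 2 the control side is 1 array, the lowest of the 3 for 9 of the 10 genes, so differences nearer to or above 0 follow from that choice. They lay between -0.87 for Crabp1 and 0.48 for Rxrg, 6 of them above 0, and none was called. With array weights 5 of the 10 were called lower at E14.5 (0.833% of all genes in either direction): Isl1, Ebf1, Zfp503, Zfhx3 and Rarb.

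At E18.5 the genotype differences lay between -0.37 for Rarb and 0.70 for Foxp1, and 0.0210% of all genes were called. None of the 10 passed at an unadjusted p under 0.05 (12.9% of all genes). At P2 they lay between -0.55 for Foxp2 and 0.20 for Rxrg, with 0.0350% of all genes called and again none of the 10 at an unadjusted p under 0.05 (7.58%). The 95% interval at E18.5 ran from -1.54 to 2.15 for Isl1 and from -0.05 to 0.92 for Meis2, and the spread behind it is shared with the E14.5 arrays. Averaged over the 3 ages none was called (0.294% of all genes), and 2 passed at an unadjusted p under 0.05, Rarb at -1.08 ± 0.41 and Foxp2 at -0.45 ± 0.18, against 11.2% of all genes. Without control array 3 of E14.5 both were called, with adjusted p-values of 0.00254 and 0.0453. That array read lowest of the E14.5 controls for both genes, so its removal had to make these differences larger. The SEs were also lower, at 0.20 for Rarb and 0.13 for Foxp2.

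Whether the E14.5 to E18.5 step itself differed between genotypes was tested as an interaction. None of the 10 genes was called (0.00700% of all genes), and 8 passed at an unadjusted p under 0.05, against 7.22% of all genes. The differences ran from 0.75 for Meis2 to 2.72 for Isl1, all above 0, and they share the E14.5 arrays with the genotype comparison. Without control array 3 of E14.5, Rarb was called, at 3.54 (adjusted p = 0.0129). Rarb read lowest of the E14.5 controls on that array, so its removal had to make the difference larger. In the E18.5 to P2 step none of the 10 was called, nor any other gene, and 1 passed unadjusted (7.23% of all genes), Meis2, at -0.80 ± 0.32 (adjusted p = 0.686).

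Genes with the most similar profile were found by the root mean square difference of centred log2 values over the 18 arrays. Zfp503 and Zfhx3 were each other's closest, at 0.34, and Isl1 and Ebf1 differed by 0.70. The predicted gene Gm3515 was among the 3 closest of Zfp503, Zfhx3 and Crabp1. Six3, a homeodomain factor of the striatum, was among those of Zfhx3 and Rarb, with E14.5 control readings of 8.45, 9 and 6.59. Otor and Dlx6 were the others of Rarb, Col4a4, Ntn1 and Meis1 those of Rxrg, and Fign and Nrp2 the others of Crabp1. The closest to Foxp1, Foxp2 and Meis2 were Cntn5, Skap2 and Bnip2.

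Of 18 other tested striatal effectors and factors, 4 rose and 4 fell in the control E14.5 to E18.5 step, against 6.06% and 4.93% over all genes, with a median of -0.05. Adcy5, an adenylyl cyclase of striatal neurons, rose by 1.13 ± 0.14 (adjusted p = 1.81e-04). Bcl11b (Ctip2), a factor of striatal projection and deep-layer cortical neurons, fell by 1.16 ± 0.20 (adjusted p = 0.00169), and Penk, the enkephalin precursor, fell by 1.06 ± 0.19 (adjusted p = 0.00212). Drd2 and Pdyn were among the genes under the filter, with highest readings of 6.06 and 5.38 on any array.

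Of 13 tested retinoid pathway genes, Crabp2, which carries retinoic acid to the nucleus, fell by 1.48 ± 0.18 (adjusted p = 1.67e-04) and Dhrs3, a retinal reductase, rose by 0.58 ± 0.18 (adjusted p = 0.0472). The median of the list was -0.02. Of 16 paralogs and cofactors of the 10 genes, 9 were called lower and none higher in the same step, against 4.93% and 6.06% over all genes. Pbx2 fell by 1.01 ± 0.16 (adjusted p = 0.00108), Pbx3, a partner of Meis proteins, by a log2 difference of -2.06 ± 0.42 (adjusted p = 0.00521), and Zfp703, the paralog of Zfp503, by 0.997 ± 0.206 (adjusted p = 0.00596). In the Htr3a-KO 4 of the 16 fell, Zfp703, Ebf2, Ldb1 and Ebf3, and none rose, against 8.88% lower and 6.26% higher over all genes.

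Cholinergic neurons of the basal forebrain also use Isl1. Of 10 cholinergic and septal markers, 4 were tested and none was called in this step in controls, and Chat, Slc18a3, Slc5a7, Lhx8 and Gbx2 were under the filter. The highest reading of Chat, the acetylcholine-synthesizing enzyme, was 5.24 on any array, while Lhx8 read 7.29 on its highest array.

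Dorsal LGE and olfactory bulb genes were mixed, with 2 of 9 higher and 2 lower, among them Pax6, which fell by 1.54 ± 0.26 (adjusted p = 0.00173). Of 13 CGE interneuron markers 5 rose and 1 fell, with Htr3a itself higher by 2.29 ± 0.26 (adjusted p = 8.24e-05) and Ndnf by 1.95 ± 0.31 (adjusted p = 9.84e-04). Among 8 markers of interneurons of the medial ganglionic eminence 1 rose and 1 fell. Of 7 pan GABAergic markers 2 fell, Dlx6 by 2.17 ± 0.50 (adjusted p = 0.0110) and Dlx5 by 1.21 ± 0.36 (adjusted p = 0.0426). Of 7 oligodendrocyte lineage markers 6 rose, among them Olig1 by 4.99 ± 0.29 (adjusted p = 1.06e-07), while 4 of 12 excitatory neuron markers, 1 of 8 progenitor markers and 1 of 4 erythroid markers fell and 1 of 8 astrocyte markers rose. No microglia or endothelial and mural marker was called in this step. In the genotype comparison at E14.5 none of the lists named here had a called gene.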

How the data were processed

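Log2 intensities of 18 Affymetrix mouse genome arrays, 1 value per probe set, were deposited by the authors after RMA normalization, per the series' design text, with Partek Genomic Suite 6.6; scanner files were not used here. Of 45101 probe sets, 64 were controls, 34945 had 1 gene in the platform annotation, 932 several and 9160 none, and only the first kind was used. The annotation can be old and names no genome build. Per gene, the probe set with the highest mean over the 18 arrays was kept, and those in the lowest 30% of means (under log2 5.26) were left out, which left 14292 genes. A model with 6 groups was fitted to all arrays with limma 3.58.1 (R 4.3.3), with adjustment of the p-values over all genes and 12 residual degrees of freedom; the steps were tested on simulated data. Named genes were the 10 genes, for each the 3 genes with the most similar profile, up to 3 called genes per list (or 2 values where fewer pass), and Htr3a; Gad2, Aif1, Drd2, Pdyn, Chat and Lhx8 were chosen after their values were seen. The members, lists and tests were chosen with earlier results of these data known. The number of arrays limits the precision. Deviations of litters with the same replicate number correlated from -0.54 to 0.30 between genotypes and from -0.43 to 0.38 between ages. The signs were mixed, and the numbers were not used to pair samples in the main fit. A shared batch was not tested. The spacing of the response element searched first was 1 base short for a repeat of whole half-sites and matched no promoter of the 10 genes; the spacing given in the results was added after the sequences were read. Alternatives covered the filter, the choice of probe set, normalization, the variance prior, array weights, the threshold, the replicate block, the arrays fitted and leaving out arrays.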

Additional observations from a re-analysis of the deposited data

How the results depend on the processing

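Over all alternatives no called value changed sign. Shares of all genes in this section count calls in either direction. In the main fit of the control E14.5 to E18.5 step, 4.93% were called lower and 6.06% higher. The count of 7 lower genes in the control E14.5 to E18.5 step became 4 (of the 6 genes left) with the lowest 50% of means removed (13.6% of all genes), 5 with only the arrays compared (9.05%), 8 with probe sets averaged per gene (10.8%), 9 with array weights (22.2%), 9 at a false discovery rate of 0.10 (16.7%), 6 to 9 with single arrays left out, and 2 without control arrays 1 and 2 of E14.5 (3.33%), where 1 array is left. Of the single arrays, leaving out control array 3 of E14.5 gave the 9 (9.09%). Where leaving out a single array gave 6, between 6.41% and 7.27% of all genes were called. The count of 4 in the Htr3a-KO step (15.1% of all genes called) became 3 with probe sets averaged (17.3%), Zfhx3 being lost. With the lowest 50% removed (16.5%) it was also 3, with Zfp503 called and Ebf1 and Crabp1 no longer tested. It became 5, Zfp503 being added, with quantile normalization (16.4%), median centring (16.4%), a trended prior (15.3%) or a false discovery rate of 0.10 (24.0%). Array weights gave 6 (5 lower, and Foxp1 higher, with 33.6% of all genes called), and leaving out single arrays gave 1 to 6. The 1 came without Htr3a-KO array 3 of E14.5 (10.7%) and the 6 without control array 3 of E14.5 (15.5%). With only the arrays compared (13.0%) the count stayed 4, Isl1 being lost (adjusted p = 0.0800) and Foxp2 added (adjusted p = 0.0204). In the E18.5 to P2 step of controls, 0 became 1, Rxrg, with only the arrays compared (11.6% of all genes called). In the Htr3a-KO it became 1, Meis2, with probe sets averaged per gene, array weights (40.5%) or a false discovery rate of 0.10 (37.6%). It became 2, Meis2 and Rxrg, with only the arrays compared (26.0%), and 0 to 2 with single arrays left out (28.3% where it was 2). The 0 called genes of the E14.5 genotype comparison became 5 with array weights (0.833%) and 0 to 5 with single arrays left out. The mean of ages gave 0 to 2. The genotype difference in the first step gave 0 to 1 (Rarb, 3.54, adjusted p = 0.0129). In all 3 comparisons the highest count with a single array left out came without control array 3 of E14.5. There 0.945%, 0.896% and 0.112% of all genes were called, in the order given. The replicate block, with numbers not known to pair samples, gave 7 in the control first step (9.75% of all genes). It gave 3 in the Htr3a-KO first step (13.2%), Zfhx3 being lost, and 0 in every other comparison. The alternatives without several arrays were added after the data were seen. Where a count changed, the cause was not tested. Removing the lowest 50% leaves fewer genes, and leaving arrays out leaves fewer samples and changes the shared spread. Without control array 3 of E14.5, the Htr3a-KO first-step difference of Zfp503 stayed at -1.92, with an SE of 0.50 against 0.63 in the main fit. Dim readings near log2 5.26 limit the size of the later differences.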
